A study of Schizosaccharomyces pombe with 12 samples.

Results

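Fission yeast (Schizosaccharomyces pombe) carrying histone H3 with arginine in place of glycine 34 (H3 G34R mutation, written G34R) were compared with yeast that have wild-type H3 and carry the label Set2D mutant, taken to mean that set2 was deleted (set2Δ). The comparison takes 6 of the 12 RNA-seq libraries of the series, 3 for each genotype, chosen by their genotype labels. Libraries of wild-type cells (H3 WT, written WT) are quoted as a further level where that helps to place the others, and the H3 G34V libraries entered the fit only to estimate the spread. Each culture was 25 mL of YES, a rich medium, kept at 25 °C overnight, and a library was made from 2 µg of RNA after removal of ribosomal RNA. No further alleles, mating type or clone history is given in the sources used here, and nothing says that the 3 libraries of a genotype came from separate cultures, so each p-value rests on a spread between libraries that may be technical.

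Set2 is the histone methyltransferase that places methyl groups on lysine 36 of H3 (H3K36) behind elongating RNA polymerase II. In yeasts this mark is known for recruiting a histone deacetylase (in fission yeast Clr6 complex II, with its chromodomain subunit Alp13), for keeping down antisense and cryptic transcription inside genes, and for silencing of genes near chromosome ends. Glycine 34 lies close to lysine 36 in the H3 tail, and arginine in place of glycine 34 of human H3.3 is known from gliomas. The comparison sets the altered residue beside the loss of the enzyme for the nearby lysine 36.

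The reference codons of the changed residue and of the Set2 target are shown because they lie close together in hht2, the H3 gene with nearly all H3 reads here (chrII:1365242-1365280, plus strand, RefSeq build ASM294v3, coding exon, codons 28 to 40). Capitals mark the codons of glycine 34 (GGT) and lysine 36 (AAG).
hht2: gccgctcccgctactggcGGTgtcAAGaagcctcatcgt

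Counts in genes were 108430807, 198350755 and 219767664 in the G34R libraries and 81980085, 92608470 and 190041712 in the set2Δ libraries. At this depth 3 counts, taken as the floor of detection in a library, correspond to 0.0135 to 0.0352 CPM (the count as a share of the scaled library total). Log-scale correlations across genes were 0.998 to 0.999 between libraries of the same genotype and 0.977 to 0.979 between G34R and set2Δ libraries, and replicates varied by 3.32% (common biological coefficient of variation). The first principal component, with 68.3% of the variance over the 12 libraries, set the set2Δ libraries apart from the others. The counts of set2Δ replicate 3 were all even, for a reason the labels do not give. Halving those counts is among the alternatives of the closing section.

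Set2 mRNA was measured first, as a check of the labels. In G34R, set2 was at 108.6, 109.1 and 112 CPM, against 4.38, 3.70 and 3.69 CPM in set2Δ and a mean of 128 CPM in WT. It was 28.4-fold higher in G34R (log2 4.83, SE 0.05, adjusted p = 2.5e-18 by edgeR's quasi-likelihood test). Its neighbour ino80, a chromatin remodeller gene, averaged 498.5 ± 0.391 CPM in G34R and 536 ± 4.43 CPM in set2Δ (SD, n = 3 each). The noncoding neighbour SPNCRNA.268 was at 1.71 ± 0.171 CPM in G34R and 7.04 ± 0.372 CPM in set2Δ (SD, n = 3 each; log2 −2.03).

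**Figure D1:**
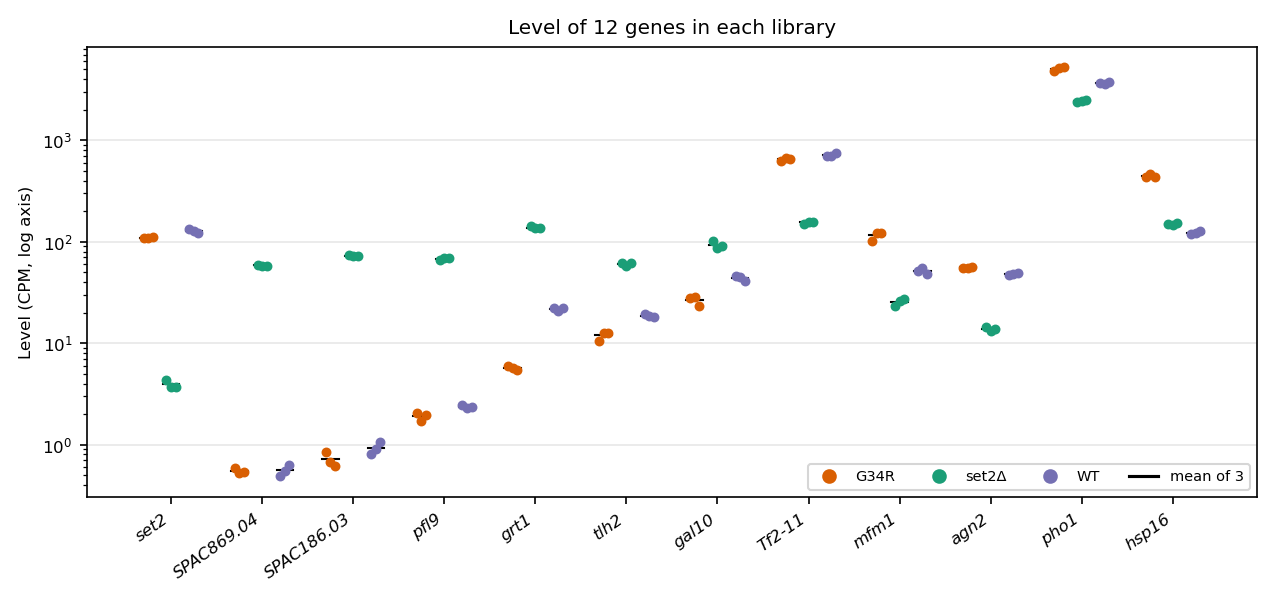
Level of 12 genes in each library, in CPM on a log axis, with G34R left, set2Δ in the middle and WT right for each gene; points are libraries and bars are means of 3. The set2 level is near 4 CPM in set2Δ, and SPAC869.04, SPAC186.03, pfl9, grt1, tlh2 and gal10 sit lower in G34R than in set2Δ while Tf2-11, mfm1, agn2, pho1 and hsp16 sit higher.

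Differences between G34R and set2Δ reached most genes, but most were small. Of 6602 tested genes, 69.4% passed an adjusted p of 0.05, with 2244 higher in G34R (34%) and 2336 lower (35.4%), and in 72.0% the 3 G34R values did not overlap the 3 set2Δ values. The median size of a called difference was 0.24 on the log2 scale, and the median difference over all tested genes was −0.01. A difference of at least 2-fold was called for 138 genes higher in G34R (2.09%) and 222 genes lower in G34R (3.36%). Of the 138, 54 were protein-coding genes, 49 noncoding RNAs, 23 tRNAs and 7 antisense RNAs named after a sense gene. Of the 222, 109 were protein-coding genes, 52 such antisense RNAs, 47 noncoding RNAs and 10 pseudogenes.

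**Figure D2:**
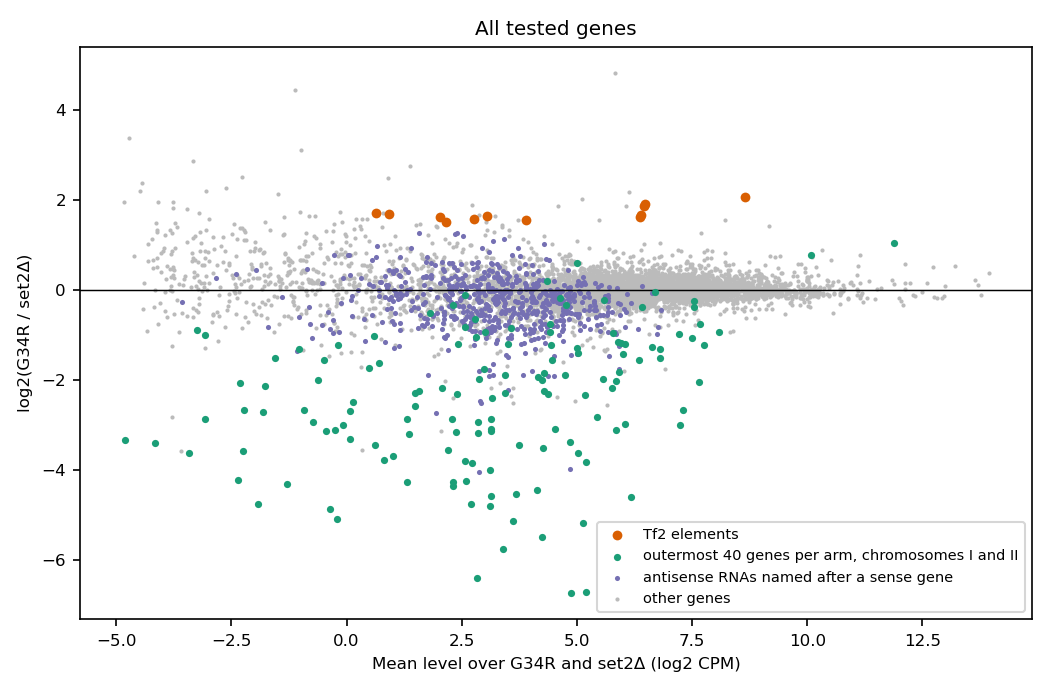
Difference between G34R and set2Δ (log2 ratio) for all 6602 tested genes against their mean level over both genotypes (log2 CPM). The outermost 40 genes of each arm of chromosomes I and II (green) make up most of the strongly lower genes, and the 12 tested Tf2 elements (orange) lie between 1.52 and 2.06.

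The strongest differences lay at the ends of chromosomes I and II. The ends of these chromosomes hold genes for nutrient transporters, flocculins, amidases and telomere-linked helicases that are little used in rich medium. Among the outermost 40 genes of each of the 4 arms, 160 genes in all, 139 were tested and 21 had too few counts. Of the 139, 132 were lower in G34R than in set2Δ and 4 were higher, beside backgrounds of 35.4% and 34% over all tested genes. Their median log2 difference was −2.29, against −0.01 over all tested genes, so that the middle gene was 4.90-fold higher in set2Δ. The median level of these genes was 2.26 CPM in G34R, 15.8 CPM in set2Δ and 2.69 CPM in WT, so G34R lay near WT in level. They held 114 of the 222 genes at least 2-fold lower in G34R (51.4%) and 49 of the 54 genes at least 8-fold lower (90.7%), but 1 of the 138 genes at least 2-fold higher.

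The low side included protein-coding genes, noncoding RNAs and pseudogenes. Of the tested genes of each class at these ends, 96 of 101 coding genes were lower in G34R (median log2 −2.25), as were 26 of 27 noncoding RNAs (−2.68) and 10 of 11 pseudogenes (−1.51). Subtelomeres hold copied sequence, and the gene counts leave out reads with several places of alignment (13.4 ± 0.232% of reads in G34R and 11.3 ± 0.291% in set2Δ, SD, n = 3 each). Their part in these results was not tested beyond the split that follows. Among genes with no similar stretch elsewhere (90% identity over 100 bases), 80 of 84 were lower in G34R with a median of −2.22, and among those with such a stretch 52 of 55 were lower with a median of −2.34. The arms differed in size of effect. The median was −2.02 at the left end of chromosome I, −2.86 at its right end, −3.12 at the left end of chromosome II and −1.82 at its right end.

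Chromosome III, whose ends carry the ribosomal DNA arrays, looked different. At its left end 16 of 30 tested genes among the outermost 40 were lower in G34R and 6 higher (median −0.30), and at its right end 18 of 39 were lower and 13 higher (median −0.03). Over all tested genes 35.4% were lower and 34% higher, near the 33.3% higher at the right end. Genes of rank 11 to 20 at the left end had the lowest median of chromosome III among the bins of 10, −1.40. At the ends of chromosomes I and II the difference faded inwards. By gene ranks 51 to 60 the medians were −0.71, −0.59, −0.31 and −0.03 at the left and right ends of chromosome I and the left and right ends of chromosome II, and by ranks 91 to 100 they were −0.05, −0.11, 0.01 and 0.11. At the right end of chromosome II, genes of rank 41 to 50 already had a median of 0.08.

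**Figure D3:**
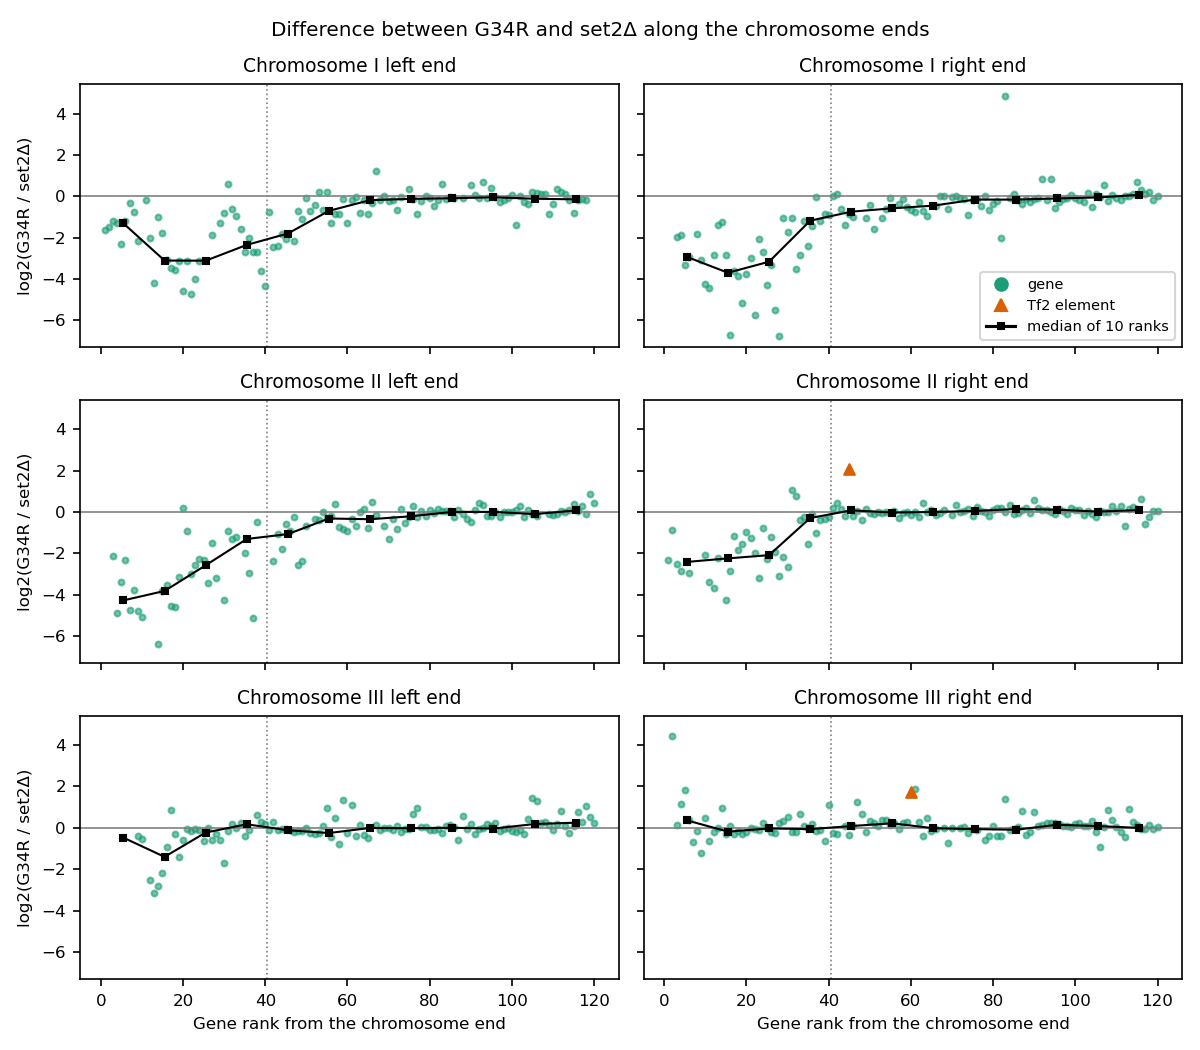
Difference between G34R and set2Δ (log2 ratio) against gene rank from the chromosome end for the outermost 120 genes of each arm. Points are tested genes, triangles Tf2 elements, squares the median of each 10 ranks, and the dotted line marks rank 40; medians at both ends of chromosomes I and II start between −1.31 and −4.27 and return to about 0, while those of chromosome III stay between −1.40 and 0.36.

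The 2 coding genes with the lowest G34R level relative to set2Δ sit at the right end of chromosome I. SPAC869.04, a formamidase-like gene, was at 0.592, 0.526 and 0.539 CPM in G34R, against 59.6, 57.4 and 58.2 CPM in set2Δ and a mean of 0.556 CPM in WT. It was 107-fold higher in set2Δ (log2 −6.74, SE 0.07, adjusted p = 3.1e-19), and the genotypes do not overlap. SPAC186.03, an L-asparaginase gene with a copy elsewhere in the genome, was at 0.851, 0.672 and 0.620 CPM in G34R, against 74.7, 71.7 and 72.4 CPM in set2Δ (log2 −6.72, SE 0.08, adjusted p = 2.5e-18). In WT SPAC186.03 averaged 0.923 CPM, so that both genes had G34R means at or below the WT mean.

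The other coding genes named as lowest were of several kinds. The amidase gene SPAC869.01 averaged 0.387 ± 0.0409 CPM in G34R and 20.7 ± 0.648 CPM in set2Δ (SD, n = 3 each; log2 −5.75). The urea transporter genes SPAC869.03c and SPBPB8B6.02c differed by −5.49 and −4.55 on the log2 scale. SPAC186.08c, an L-lactate dehydrogenase gene, differed by −4.25, the Vel1p-domain genes SPBC1348.06c, SPAC977.05c and SPBPB2B2.15 by −4.75, −4.58 and −4.27, and the uncharacterized SPAPJ695.01c by −4.35. The rule that named these genes required that G34R and set2Δ values not overlap.

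The next examples differ in how G34R stood to WT. The grt1 gene, for a transcription factor, was at 6.02, 5.72 and 5.50 CPM in G34R, against 141, 136 and 137 CPM in set2Δ, and at 21.7 ± 0.895 CPM in WT (SD, n = 3), so that the G34R values lay below the WT mean too (against set2Δ log2 −4.60, SE 0.04, adjusted p = 6.1e-20). The flocculin gene pfl9, for a cell-surface glycoprotein, was at 2.03, 1.71 and 1.94 CPM in G34R, against 66.1, 69.3 and 68.5 CPM in set2Δ and a WT mean of 2.36 CPM (log2 −5.18, SE 0.05). The RecQ-type helicase genes tlh1 and tlh2 at the very ends share sequence with each other and other end copies, so their counts cannot be split with certainty. In G34R, tlh2 was at 10.4, 12.7 and 12.6 CPM, against 61.8, 58.2 and 62.2 CPM in set2Δ (log2 −2.34, adjusted p = 4.3e-11), and tlh1 differed by −1.62.

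The 7 tested end genes that were not lower in G34R are named here after their values were seen. The acid phosphatase gene pho1 and the phosphate transporter gene pho84 were higher in G34R by 1.05 and 0.77 on the log2 scale. The L-asparaginase genes SPAC977.12 and SPBPB8B6.05c, which share sequence with each other, were higher by 0.60 and 0.20. The arginine and lysine transporter gene cat1 (−0.04, adjusted p = 0.31), SPBCPT2R1.10 and SPNCRNA.1694 were not called. Coding genes at least 2-fold lower in G34R outside the outermost 40 numbered 27, of which 14 lay at ranks 41 to 70 of chromosomes I and II, 4 among the outermost 20 of the left end of chromosome III and 9 elsewhere. Of the 41 coding genes outside the ends and outside Tf2 that were at least 2-fold higher in G34R, 0 lay in either zone.

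Tf2 retrotransposons moved the other way. Tf2 elements are the long terminal repeat retrotransposons still present as full copies in the fission yeast genome, and their transcripts are known to respond to stress. All 12 tested of the 13 Tf2 elements were higher in G34R, by 1.52 to 2.06 on the log2 scale with a median of 1.66, and each was past 2-fold. The other element, Tf2-8, had 0 counts in all 9 G34R, set2Δ and WT libraries. Tf2-11, which lies at rank 45 from the right end of chromosome II, was at 626, 667 and 649 CPM in G34R, against 151, 155 and 158 CPM in set2Δ and a mean of 717 CPM in WT (log2 2.06, SE 0.04, adjusted p = 5.3e-16). The other named elements were higher by 1.92 (Tf2-4), 1.87 (Tf2-2), 1.71 (Tf2-13), 1.68 (Tf2-10), 1.65 (Tf2-1) and 1.63 (Tf2-5). The elements are near-identical, and the gene counts leave out reads with several places of alignment. A read counted for 1 element may still come from another, and the 12 values are not independent.

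Summed over the 12 elements, Tf2 reads took 1138 to 1309 CPM in the G34R libraries, 324 to 339 CPM in the set2Δ libraries and 1158 to 1187 CPM in WT. The G34R and set2Δ sums did not overlap, and the WT sums fell within the range of G34R. The sums rest largely on the most abundant element, given above with its CPM, whose G34R values lay below its WT mean. The median level of the 12 elements was 17.27 CPM in G34R, 5.84 CPM in set2Δ and 13.77 CPM in WT. The sums thus do not show how each element stood to WT.

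Antisense RNAs were more often lower than higher in G34R. There are 635 antisense RNAs whose name gives the sense gene, and 617 passed the count filter: 362 were lower in G34R, 131 were higher and 124 were not called, with a median of −0.24. Over all tested genes 35.4% were lower and 34% higher, with a median of −0.01. Their summed level was 7975 to 8131 CPM in the G34R libraries, 10357 to 10460 CPM in set2Δ and 6842 to 6997 CPM in WT. Without the antisense RNAs of genes at the outermost 40 ranks, 353 of 608 were lower and 131 higher, with a median of −0.24. Libraries were made with a kit that keeps the strand. The strand setting of the counting is not given in the sources used here. Of 26 noncoding RNAs enclosed by a coding gene on the opposite strand, 22 had more than 3 counts in each of the 6 libraries. Enclosure was read from ASM294v3, a later build than that of the counting, so these counts do not settle the setting.

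The sense genes did not follow as a group. Of 354 antisense RNAs lower in G34R whose sense gene was tested, 128 had a sense gene higher in G34R, 132 a lower and 94 an uncalled sense gene, and the sense genes' median was −0.00. Among all 604 pairs, 224 sense genes were higher in G34R and 216 lower. Over all tested genes 34% were higher and 35.4% lower. The antisense RNA of the importin gene kap114, kap114-antisense-1, was at 2.24, 2.33 and 2.29 CPM in G34R, against 12.5, 12.4 and 13.9 CPM in set2Δ and a WT mean of 1.83 CPM (log2 −2.50, SE 0.08, adjusted p = 3e-13). Its sense gene kap114 averaged 195 ± 1.13 CPM in G34R and 211 ± 2.59 CPM in set2Δ (SD, n = 3 each; log2 −0.12), so the antisense differed far more than the sense.

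In 3 named pairs at chromosome ends both strands were lower. The antisense RNA grt1-antisense-1 was at 3.45, 3.42 and 3.38 CPM in G34R, against 56.4, 54.0 and 52.1 CPM in set2Δ (log2 −3.99), beside −4.60 for grt1. SPAC869.09-antisense-1 differed by −4.04, beside −1.19 for its sense gene SPAC869.09, and SPBP4G3.03-antisense-1 by −2.73, beside −2.18 for fub2, a gene of the proteasome regulator PI31 family. The named antisense RNAs higher in G34R changed less. They were tri1-antisense-1 (1.27), kpa1-antisense-1 (1.19), mcp6-antisense-1 (1.13) and SPCC191.10-antisense-1, which averaged 7.10 CPM in G34R and 3.13 CPM in set2Δ. Of these, tri1 and SPCC191.10 had sense genes higher by 1.20 and 1.36. The sense gene kpa1, for a repair polymerase, was not called (0.04, adjusted p = 0.63).

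**Figure D4:**
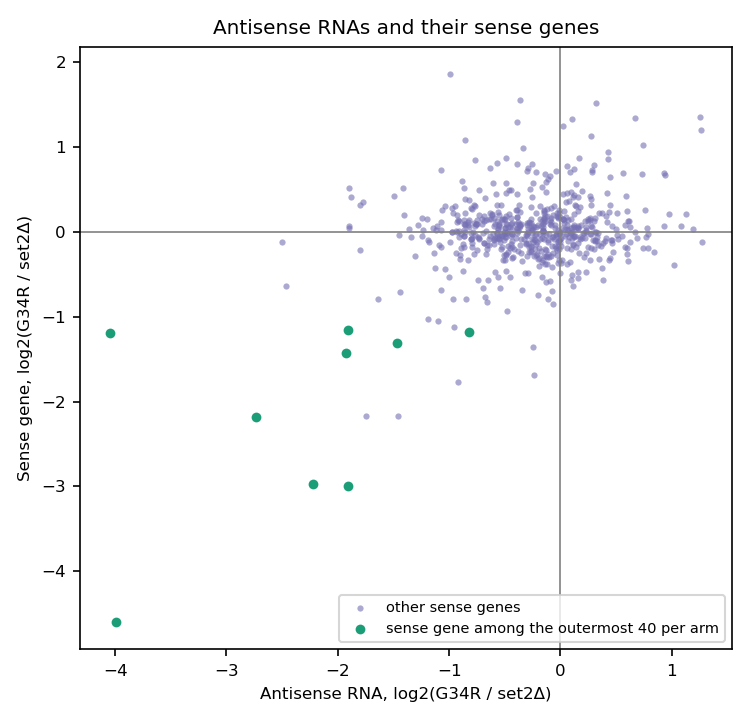
Difference between G34R and set2Δ (log2 ratio) of 604 antisense RNAs on the horizontal axis and of their sense genes on the vertical axis. Most antisense RNAs lie left of 0 with sense genes near 0, and the pairs whose sense gene is among the outermost 40 of an arm of chromosome I or II lie low on both axes.

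Other noncoding RNAs moved in both directions. Of 671 tested RNAs with an SPNCRNA name, 211 were higher in G34R, 222 lower and 238 not called, with a median of 0.02, near the shares over all genes. SPNCRNA.1287 was at 96.5, 110.9 and 109 CPM in G34R, against 27.7, 29.6 and 29.3 CPM in set2Δ and a mean of 68.7 CPM in WT (log2 1.87, SE 0.05, adjusted p = 7.5e-14), and the annotation lists it as a possible alternative UTR. SPNCRNA.1255 (1.65), SPNCRNA.863 (1.41) and SPNCRNA.517 (1.41) were also higher in G34R. The 4 named as lowest, among noncoding RNAs with at least 5 CPM in G34R or set2Δ, were again at chromosome ends. SPNCRNA.287 was at 0.527, 0.632 and 0.616 CPM in G34R, against 15.0, 16.4 and 18.4 CPM in set2Δ (log2 −4.79), and prl61 and SPNCRNA.1304 differed by −4.46 and −3.17. SPNCRNA.601 averaged 1.04 CPM in G34R and 16.2 CPM in set2Δ.

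Reads outside annotated genes were rarer in G34R. They took 2.42 ± 0.0263% of all reads in G34R, 3.26 ± 0.0506% in set2Δ and 2.02 ± 0.0204% in WT (SD, n = 3 each), and no G34R value overlapped a set2Δ value. The exact two-sided permutation test gave p = 0.1, which is the smallest that 3 against 3 libraries allow.

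Genes of the mating response were mostly higher in G34R. Fission yeast cells of opposite mating type exchange peptide pheromones when starved; the transcription factor Ste11 switches on the pheromone genes, their receptors and the MAP kinase cascade. Of 22 tested mating and Ste11 target genes, 15 were higher in G34R, 3 lower and 4 not called (median 0.22), beside 34% and 35.4% of all genes. The M-factor pheromone genes differed among themselves. The mfm1 gene was at 103, 123 and 121 CPM in G34R, against 23.1, 25.9 and 27.2 CPM in set2Δ and a mean of 51.4 CPM in WT (log2 2.18, SE 0.09, adjusted p = 4.7e-09), and mfm3 was at 12.02, 12.39 and 11.61 CPM in G34R, against 4.11, 4.81 and 5.09 CPM in set2Δ (log2 1.34, adjusted p = 3.3e-11). Levels of mfm2, given for contrast after its values were seen, were 216.5, 229 and 219 CPM in G34R, against 219, 220.1 and 211 CPM in set2Δ, and overlapped (log2 0.03, adjusted p = 0.45).

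The 250 bases before the annotated gene starts of mfm1 and mfm2 are shown because their genes differ in response while both encode M-factor (RefSeq build ASM294v3; chrI:4916765-4917014 on the plus strand and chrI:2913251-2913500 on the minus strand). Capitals mark the Ste11 box TTCTTTGTT, searched on both strands and read here as its reverse complement.
mfm1: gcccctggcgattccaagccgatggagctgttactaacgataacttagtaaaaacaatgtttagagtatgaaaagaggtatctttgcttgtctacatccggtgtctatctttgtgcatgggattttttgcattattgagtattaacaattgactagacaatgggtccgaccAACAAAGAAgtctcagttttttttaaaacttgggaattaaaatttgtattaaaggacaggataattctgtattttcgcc
mfm2: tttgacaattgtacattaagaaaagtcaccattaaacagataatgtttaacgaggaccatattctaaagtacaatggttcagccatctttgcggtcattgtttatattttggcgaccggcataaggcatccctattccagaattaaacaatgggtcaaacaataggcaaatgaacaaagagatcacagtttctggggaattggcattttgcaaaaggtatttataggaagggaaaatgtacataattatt
The exact box was in the window of mfm1 and not in that of mfm2, which held a near match that differs at its last printed base. The exact box was in 10 of the 22 windows of the mating list (45.5%) and in 80 of 5050 windows of all tested coding genes (1.58%). That list includes genes chosen as Ste11 targets, so a raised share is built into it. Whether the box bears on the differences between G34R and set2Δ was not tested.

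The regulators and kinases of the pathway differed less than mfm1. The gene ste11, singled out after its values were seen, was at 397, 389 and 345 CPM in G34R, against 277, 255 and 243 CPM in set2Δ (log2 0.55, SE 0.09, adjusted p = 0.00033). The gene mei2, whose RNA-binding product starts meiosis, and spk1, the MAP kinase gene of the pheromone cascade, were higher by 0.57 and 0.51. Of the 7 genes specific to M cells, 4 were higher in G34R, 0 lower and 3 not called (1 was lower without G34R replicate 1); beside mfm1 and mfm3 these were the pheromone receptor gene mam2 (0.37) and the exporter gene mam1 (0.15). The mam1 call was lost without set2Δ replicate 2 (adjusted p = 0.051). Over all tested genes, the background for these M-cell counts and the P-cell counts that follow, 34% were higher and 35.4% lower. Of the 5 genes specific to P cells, 3 were higher in G34R and 2 lower: the regulator gene map1 (0.53), the M-factor receptor gene map3 (0.30) and sxa1 rose, and the agglutinin gene map4 (−0.47) and the P-factor gene map2 (−0.35) fell. The mating-type gene mat1-Mi averaged 0.872 ± 0.0993 CPM in G34R and 0.465 ± 0.0388 CPM in set2Δ (SD, n = 3 each), and the other 5 mating-type genes had too few counts to test.

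Genes of early meiosis shared this direction, while those of sporulation did not. Of 24 early meiosis genes, 18 were higher in G34R, 3 lower and 3 not called (median 0.29), beside 34% and 35.4% of all tested genes. The cohesin gene rec11 averaged 32.3 ± 0.558 CPM in G34R and 20.5 ± 0.534 CPM in set2Δ (SD, n = 3 each; log2 0.66), and the recombination gene rec24 and the dynein anchor gene mcp5 were higher by 0.49 and 0.44. An exception was dmc1, the meiotic strand-exchange protein gene. It was at 5.46, 5.42 and 5.11 CPM in G34R, against 17.4, 17.2 and 17.0 CPM in set2Δ and a WT mean of 4.77 CPM (log2 −1.69, SE 0.04, adjusted p = 2.8e-14), so that set2Δ stood above both others.

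Of 20 genes for sporulation, 9 were higher in G34R and 9 lower, with a median of 0.00, beside 34% and 35.4% of all tested genes. The gene agn2, for the glucanase that opens the ascus wall, was at 55.2, 55.4 and 57.0 CPM in G34R, against 14.5, 13.1 and 13.7 CPM in set2Δ and a WT mean of 48.0 CPM (log2 2.02, SE 0.04, adjusted p = 4.8e-16). The gene meu6 was at 23.0, 24.5 and 24.3 CPM in G34R, against 58.7, 57.2 and 57.4 CPM in set2Δ and a WT mean of 19.7 CPM (log2 −1.27). The sporulation gene meu14 and the spore-wall protein gene isp3 were lower by 0.85 and 0.71 on the log2 scale. Of the 4 meiotic septin genes, spn5 (0.24) and spn7 (0.13) were called higher and spn2 and spn6 were not called, with 1 lower without set2Δ replicate 1.

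Genes for phosphate uptake were higher in G34R. Acid phosphatase Pho1, phosphate transporter Pho84 and glycerophosphodiester transporter Tgp1 scavenge phosphate, under the transcription factor Pho7. All 4 tested genes were higher in G34R, with a median of 0.68, beside 34% of all tested genes. The pho1 gene was at 4839, 5107 and 5226 CPM in G34R, against 2406, 2424 and 2522 CPM in set2Δ and a WT mean of 3688 CPM (log2 1.05, SE 0.04, adjusted p = 2.1e-12). Here WT lay between the mutants. The differences were 0.77 for pho84, 0.58 for tgp1 and 0.17 for pho7.

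Amino acid synthesis genes also leaned towards G34R. Of 37 genes, 30 were higher, 4 lower and 3 not called (median 0.22), beside 34% and 35.4% of all tested genes. The serine synthesis gene ser3 was at 2753, 2908 and 2863 CPM in G34R, against 1656, 1614 and 1723 CPM in set2Δ (log2 0.77, SE 0.04, adjusted p = 2.0e-10), and arg5, for a carbamoyl-phosphate synthase subunit, was higher by 0.57. The argininosuccinate lyase gene arg7 (−0.95) and the phosphoserine phosphatase gene ser2 (−0.46) were lower in G34R. The summed level of the list was 33042 to 33419 CPM in G34R, 25013 to 26611 CPM in set2Δ and 32813 to 34632 CPM in WT, without overlap between G34R and set2Δ.

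Permease and transporter genes moved both ways. Of 13 genes for nitrogen starvation and permeases, 4 were higher in G34R and 7 lower, beside 34% and 35.4% of all tested genes. The proline permease gene put4 was at 36.7, 34.1 and 33.5 CPM in G34R, against 90.6, 95.9 and 93.8 CPM in set2Δ (log2 −1.43), and aat1 (−0.94) and per1 (−0.66) were also lower. The ammonium transporter gene amt3 was at 61.5, 69.2 and 68.8 CPM in G34R, against 21.99, 22.12 and 23.45 CPM in set2Δ (log2 1.56, SE 0.05, adjusted p = 1.6e-12). The genes put4 and aat1 lie at ranks 36 and 46 from a chromosome end, while per1 and amt3 lie at ranks 903 and 1313. SPBC23G7.13c, a urea transporter gene far from the ends, was at 35.5, 39.7 and 37.8 CPM in G34R, against 9.72, 10.1 and 11.2 CPM in set2Δ (log2 1.86), opposite in sign to the urea transporter genes at the ends.

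Of 8 hexose transporter genes, 4 were higher in G34R and 3 lower, beside 34% and 35.4% of all tested genes. The genes ght7 (−3.55) and ght3 (−2.47), at ranks 16 and 42, were lower, and ght6 (1.30) and ght8 (0.29), at ranks 106 and 117, were higher. The galactose genes gal1, gal7 and gal10, a cluster at ranks 17 to 20 of the right end of chromosome II, were lower by 1.15, 0.95 and 1.82 on the log2 scale. In G34R gal10 was at 27.7, 28.7 and 23.0 CPM, against 102, 87.7 and 90.7 CPM in set2Δ and a WT mean of 43.9 CPM (adjusted p = 4.4e-08). Of 9 pfl glycoprotein genes, 7 were lower in G34R and 1 higher (median −0.63), among them pfl7 (−2.55), fta5 (−1.12) and pfl4 (−0.63) after pfl9. Of 13 iron uptake genes, 7 were lower and 3 higher. The heme uptake gene shu1 (−2.39) and the siderophore transporter gene str3 (−1.80) lie at ranks 43 and 44 of the left end of chromosome I, and the iron transporter gene pcl1 (−0.33) and the repressor gene fep1 (0.24) differed less. Leaving out G34R replicate 2 or set2Δ replicate 2 left 1 iron uptake gene higher in place of 3.

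**Figure D5:**
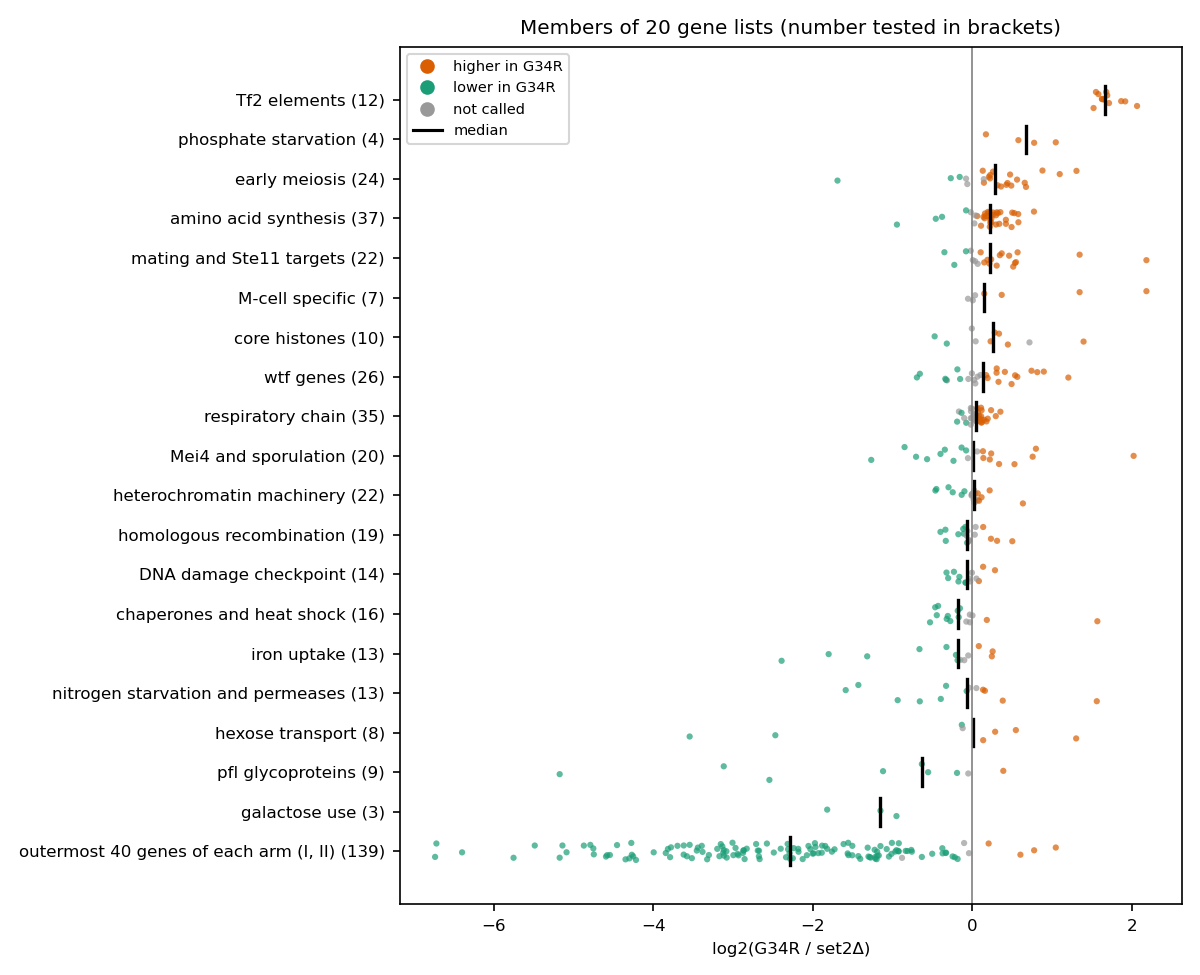
Difference between G34R and set2Δ (log2 ratio) for each tested member of 20 gene lists, coloured by its call, with a bar at the list's median. Tf2 elements lie between 1.52 and 2.06, the outermost genes of chromosomes I and II have a median of −2.29, and within most other lists members lie on both sides of 0.

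Chaperone genes were mostly lower in G34R, with 1 large exception. These genes encode proteins that refold or clear damaged proteins, under the heat shock factor. Of 16 genes, 10 were lower in G34R, 2 higher and 4 not called (median −0.18), beside 35.4% lower and 34% higher of all tested genes. The disaggregase gene hsp104 was at 589, 624 and 593 CPM in G34R, against 869.7, 840.1 and 901 CPM in set2Δ and a WT mean of 484 CPM (log2 −0.53, SE 0.03, adjusted p = 2.1e-09). The mitochondrial chaperone gene SPBC4F6.17c (hsp78) and the co-chaperone gene wos2 were lower by 0.45 and 0.43 on the log2 scale. The small heat shock protein gene hsp16 was at 436, 468 and 433 CPM in G34R, against 151, 146 and 155 CPM in set2Δ and a WT mean of 123 CPM (log2 1.57, SE 0.04, adjusted p = 3.1e-14), so that G34R stood above both others. Of 15 core stress response genes, 4 were higher and 4 lower: sro1 (0.71) and the metallothionein gene zym1 (0.63) were higher, and gst2 (−0.40) and tms1 (−0.18) lower.

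The 250 bases before the annotated start of hsp16 are shown because hsp16 moved against most of its list (RefSeq build ASM294v3, chrII:2660993-2661242, minus strand). Capitals mark the heat shock element core GAANNTTC, which reads the same on both strands.
hsp16: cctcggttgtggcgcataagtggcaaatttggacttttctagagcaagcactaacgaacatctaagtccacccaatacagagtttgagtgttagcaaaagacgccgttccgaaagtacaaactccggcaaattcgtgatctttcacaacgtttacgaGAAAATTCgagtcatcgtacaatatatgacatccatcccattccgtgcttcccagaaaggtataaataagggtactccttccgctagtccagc
This core was in 10 of 16 windows of the chaperone list (62.5%) and in 478 of 5050 windows of all tested coding genes (9.47%). Most other windows of the list held it too, but those of hsp104, SPBC4F6.17c and wos2, named above as lower, did not. Whether the core bears on the differences between G34R and set2Δ was not tested.

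The main H3 and H4 genes were not called. Of the histone genes that were called, 5 were higher in G34R, and the 2 lower ones, cnp1 and pht1, encode histone variants. Of 10 tested genes of the histone list, which includes these 2 variant genes, 5 were higher in G34R, 2 lower and 3 not called (median 0.25). Over all tested genes 34% were higher and 35.4% lower. The 5 higher genes include hht1 and hht3, which had few reads in both genotypes. The summed level of the 10 genes was 4310 to 4472 CPM in G34R, 3705 to 3824 CPM in set2Δ and 4186 to 4370 CPM in WT, without overlap between G34R and set2Δ. The gene hht2 for H3 was at 727, 689 and 673 CPM in G34R, against 643, 682 and 706 CPM in set2Δ, and overlapped (log2 0.04, adjusted p = 0.37). Its H4 partner hhf2 averaged 508 ± 29.5 CPM in G34R and 510.4 ± 6.46 CPM in set2Δ (SD, n = 3 each; adjusted p = 0.87). The other H3 and H4 genes were at far lower levels: hht3 averaged 2.12 ± 0.233 CPM in G34R and 1.57 ± 0.125 CPM in set2Δ, hht1 0.121 ± 0.0324 CPM in G34R and 0.0353 ± 0.0332 CPM in set2Δ, and hhf1 0.0729 ± 0.0240 CPM in G34R and 0.0426 ± 0.0166 CPM in set2Δ (SD, n = 3 each). The call for hht1 was lost without G34R replicate 3 (adjusted p = 0.064). The gene hhf3 had 2 to 10 counts per library, among them 6, 2 and 7 in WT, and was not tested. Whether intact copies of these low-level genes remain in the strains was not tested. The H2B gene htb1 and the H2A genes hta2 and hta1 were higher in G34R by 0.33, 0.28 and 0.23, and the centromeric H3 gene cnp1 and the H2A.Z gene pht1 lower by 0.47 and 0.32 on the log2 scale.

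Genes that act with Set2 or silence chromatin were called in both directions, beside 34% higher and 35.4% lower over all tested genes, and in 2 of the lists, heterochromatin and shelterin, fewer were called than the 69.4% over all genes. Of the 7 genes for Set2 and Clr6 complex II, 4 were higher in G34R and 2 lower; apart from set2, the deacetylase gene clr6 (0.24), prw1 (0.13) and alp13 (−0.14) are the named members. Of 22 heterochromatin genes, 5 were higher, 6 lower and 11 not called (median 0.02). The adaptor gene stc1 averaged 13.3 ± 0.341 CPM in G34R and 8.61 ± 0.793 CPM in set2Δ (SD, n = 3 each; log2 0.63), and epe1, for an antagonist of silencing, was higher by 0.22. The RNA-directed RNA polymerase gene rdp1 (−0.46) and the SHREC subunit gene clr2 (−0.45) were lower. Of 10 shelterin and telomerase genes, 4 were higher and 1 lower, the telomerase RNA gene ter1 (−0.45), beside ccq1 (0.22), pot1 (0.11) and tpz1 (0.08). Of 16 transcription elongation and histone chaperone genes, 8 were higher and 4 lower, led by spt5 (0.47), hip3 (0.46), hip1 (0.43) and iws1 (0.31); 2 were lower without G34R replicate 2 or without set2Δ replicate 1. Of 7 genes of the Mst2 acetyltransferase complex, 3 were higher and 3 lower, the largest difference being −0.31 for ptf2.

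DNA repair and replication genes were called in both directions, beside 34% higher and 35.4% lower over all tested genes. Of 19 homologous recombination genes, 4 were higher in G34R and 8 lower (median −0.06). The gene rad50, of the break-processing MRN complex, averaged 153 ± 1.73 CPM in G34R and 108 ± 4.18 CPM in set2Δ (SD, n = 3 each; log2 0.50), the resolvase subunit gene eme1 was higher by 0.31, and the helicase genes srs2 (−0.40) and fbh1 (−0.33) were lower. Of 14 DNA damage checkpoint genes, 3 were higher and 7 lower. The checkpoint kinase gene rad3 (0.28) was higher, and the clamp and loader genes rad9 (−0.33) and rad17 (−0.30) and the scaffold gene rad4 (−0.23) lower. Of 17 MBF targets, 4 were higher, 2 lower and 11 not called, fewer calls than the 69.4% over all tested genes. Among them, the G1/S cyclin gene cig2 (0.57) and the ribonucleotide reductase gene suc22 (0.27) were higher and the corepressor gene yox1 (−0.46) lower. Of 27 replication genes, 9 were higher and 11 lower, from cdc45 (0.42) and mcm3 (0.35) to mcm5 (−0.39) and orc6 (−0.38).

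Housekeeping groups lay close to 0. Of 83 large and 55 small ribosomal protein genes, 0 and 1 were higher in G34R and 21 and 18 lower, with medians of −0.07 and −0.08, beside 34% higher and 35.4% lower of all tested genes. These counts depended on single libraries: 36 and 38 large-subunit genes were lower without G34R replicate 1 and without set2Δ replicate 1, and 9 to 11 small-subunit genes without G34R replicate 2, G34R replicate 3 or set2Δ replicate 3. Without set2Δ replicate 2, 1 large-subunit gene was higher, and 2 and 3 small-subunit genes were higher without G34R replicate 3 and without set2Δ replicate 3. Of 49 ribosome biogenesis genes, 5 were higher and 17 lower (median −0.05), among them utp7 (−0.27) and rrp8 (−0.26). Of 35 respiratory chain genes, 17 were higher and 3 lower (median 0.04), among them the ATP synthase gene atp15 (0.29), with 5 lower without G34R replicate 1, and of 20 ergosterol genes 12 were higher and 3 lower (median 0.09), led by erg31 (0.47). The 8 strain marker genes, not a housekeeping group, had a median of 0.27, and 7 were called higher in G34R. Of these, ura4 (log2 1.11) was at a low level (0.288 ± 0.0670 CPM in G34R and 0.150 ± 0.0475 CPM in set2Δ, SD, n = 3 each) and ade6 was higher by 0.42. The proton pump gene pma1 was higher in G34R by 0.15, and its minor relative pma2 averaged 23.5 ± 1.04 CPM in G34R and 19.9 ± 0.485 CPM in set2Δ (SD, n = 3 each), both above the WT mean of 6.69 CPM.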

How the data were processed

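RNA was sequenced from 12 libraries, and the 6 labelled G34R or Set2D mutant are compared here. The deposited values are read counts per gene. Per the submitters' processing notes, the authors used CASAVA 1.7, cutadapt, STAR, SAMtools and HTSeq with build ASM294v2; the sources used here give no other versions or settings. Each file held 7013 genes and 5 summary lines, which were kept out of the tests.

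Names, classes and gene order came from RefSeq ASM294v3, a later build, to which 6214 genes were matched, of them 3734 through the symbol, 2374 through the locus tag and 106 through a synonym. The 799 others included 635 antisense RNAs. In edgeR 4.0.16, filterByExpr kept 6602 genes and left out 411. TMM factors were 0.972 to 1.04, and counts were fitted with robust quasi-likelihood over all 12 libraries (8 residual degrees of freedom). Calls used Benjamini-Hochberg adjusted p at 0.05 over all tested genes. CPM were computed here from the deposited counts. Floors cover counting error only. Similar stretches were found with blastn 2.17.0.

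Members and the 40 gene lists were chosen with earlier results of these data known; 3 listed genes (erg13, mpp10 and krr1) were not matched. Named genes were the 12 coding, 4 noncoding and 4 antisense genes with the largest called differences in each direction (at least 5 CPM in 1 genotype, no overlap), up to 4 called members per list with the lowest adjusted p, and genes fixed to check labels.

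In simulated counts for this comparison on 6602 genes, 34% of genes changed 1.1-fold, 94% of those changed 1.25-fold, 98% at 1.5-fold and 96% at 2-fold were found, with 7 false calls. The simulation changed 50 genes at each fold, whereas 69.4% of genes were called in the data. How these figures carry over to the data was not tested. Alternatives were other scalings, filters, thresholds, DESeq2 1.42.0, limma 3.58.1 and leaving out each library. R 4.3.3 and Python 3.11.15 were used.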

Additional observations from a re-analysis of the deposited data

How the results depend on the processing

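No paired analysis was possible because no replicate numbers link the libraries of a genotype to those of another. The test against a fold of 1.5 called 180 genes higher and 355 lower, since it asks for a larger difference. At least 2-fold higher in G34R were 77 genes with a filter of 1 CPM in 6 libraries and 53 among protein-coding genes alone, where 109 were at least 2-fold lower; fewer features were tested in both. As a share of reads aligned once, reads outside genes differed by −0.90 percentage points, in place of −0.84. Leaving out each library in turn gave 2086 to 2199 genes higher, 2177 to 2312 lower, 129 to 148 at least 2-fold higher, 221 to 228 at least 2-fold lower, a set2 difference of 4.77 to 4.89 and a difference of −0.87 to −0.82 percentage points in reads outside genes. Upper quartile scaling gave 1955 higher and 2628 lower, so that 42.7% of calls were higher in place of 49.0%; DESeq2 gave 2262 and 2297, limma-voom 2263 and 2329, and halving the counts of set2Δ replicate 3 gave 2178 and 2370. The balance of calls turned to more higher than lower with the 6 G34R and set2Δ libraries alone (2277 higher, 2255 lower) and with protein-coding genes alone (1778 higher, 1719 lower), so neither direction is given as the more frequent over all genes. Of 187 named genes called, 109 lost the call in the test against a fold of 1.5, and in other alternatives hht1 and mam1 did on leaving out a library and at an adjusted p of 0.01, and tpz1 under upper quartile scaling. Of the list counts, 1230 stayed within 1.5 times the main count and 124 did not. With 20 outermost genes per arm in place of 40, 64 were lower and 1 higher; this and the split by similar stretches were chosen after seeing the data. Depth limits the genes near 0.0135 to 0.0352 CPM, such as hht1 and hhf1.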

Other observations

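Transfer RNA genes were at low levels in the G34R, set2Δ and WT libraries. Of 171 tRNA genes 80 had enough counts to test. Of these, 36 were higher in G34R and 2 lower (median log2 0.58), beside 34% and 35.4% of all tested genes. Without G34R replicate 2 or 3 or set2Δ replicate 2 or 3, 1 was lower. The summed level of the tested tRNA genes was 25.0 to 25.9 CPM in G34R, 16.2 to 16.9 CPM in set2Δ and 18.5 to 21.2 CPM in WT. SPBTRNALEU.10 averaged 1.40 ± 0.0798 CPM in G34R and 0.478 ± 0.130 CPM in set2Δ (SD, n = 3 each; log2 1.51), and SPATRNAPRO.02 was higher by 1.00. Of 41 tested small nucleolar and spliceosomal RNAs, 3 were higher (5 without G34R replicate 3) and 16 lower, among them snR92 (−0.75) and snoR61 (−0.44). Of 26 mitochondrially encoded genes 2 were higher and 10 lower, among them cox1 (−0.18) and cox2 (−0.17). The shares lower, 39.0% and 38.5%, were near the 35.4% over all tested genes, while the shares higher, 7.3% and 7.7%, were below the 34% over all. Of the mitochondrial genes, 6 were lower without G34R replicate 3 and 5 without set2Δ replicate 2, and 4 were higher without set2Δ replicate 2 and 1 without G34R replicate 1 or 2 or set2Δ replicate 1 or 3.

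The wtf genes, a family of meiotic drivers and suppressors mostly on chromosome III, were split. Of 26, 13 were higher in G34R and 6 lower (median 0.14), beside 34% and 35.4% of all tested genes. The antidote-like gene wtf25 averaged 10.8 ± 0.247 CPM in G34R and 5.76 ± 0.377 CPM in set2Δ (SD, n = 3 each; log2 0.90), wtf13 and wtf14 were higher by 0.74 and 0.30, and wtf11 was lower by 0.66 on the log2 scale. Members share sequence, so reads with several places of alignment are left out of their counts and others may be placed at another member.

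The coding genes outside the ends and outside Tf2 were ordered by their level in WT, whose libraries entered the filter, the scaling and the spread behind the calls, and cut into 5 equal groups. In the group with the lowest WT level, 40.8% were lower and 32.8% higher in G34R than in set2Δ. In the group with the highest level, 21.6% were lower and 38.7% higher. The groups between them had 38.5%, 33.1% and 26.1% lower. Counting depth differs between these groups, and its part in the shares was not tested.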
